A study of Rattus norvegicus with 2 samples.

Results

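The genes described here belong mostly to antioxidant defence and glutathione metabolism, measured in microglia, the macrophages that live in the brain, here from rats. They were chosen by name: every probe set that the array's annotation assigns to exactly 1 gene, where that gene is a glutathione S-transferase (GST), microsomal GST, glutathione peroxidase, peroxiredoxin, thioredoxin-related protein or sulfiredoxin, or 1 of a short list of further antioxidant genes such as Hmox1, Nqo1, Sod1, Cat and Nfe2l2. This gave 79 probe sets for 68 genes, of 14217 genes that had a probe set of their own. The rule used gene names only and no measured intensities. Cells from Sprague Dawley rats, grown in a serum-containing medium, were either left untreated (resting, 1 array) or exposed for 3 h to oxygen-glucose deprivation (OGD, 1 array), in which both are withheld to imitate ischaemia in culture. The labels do not give the age of the rats, the number of animals or cultures behind each array, or how pure the cultures were. No replicates exist, so nothing below carries a test, a p-value or an error between cultures, and every difference describes these 2 arrays.

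Cells hold reactive oxygen species in check with enzymes that draw on the small thiols and proteins glutathione and thioredoxin. Superoxide dismutases turn superoxide into hydrogen peroxide, which catalase, glutathione peroxidases and peroxiredoxins then remove, and glutathione S-transferases attach glutathione to reactive compounds. Many of these genes are induced by the transcription factor NRF2 (gene Nfe2l2), which is held down by KEAP1 and, once released, binds antioxidant response elements in the DNA. In microglia the oxidative burst is a source of such species, and Hmox1 is widely used as a marker of oxidative stress in them.

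The core of the antioxidant response element was searched as TGACNNNGC on both strands of the promoter windows of the RefSeq table for build GRCr8, each reaching from 250 bases before a gene's start to 50 after it. Where NNN is TCA the core holds TGACTCA, the element bound by AP-1, so the 2 motifs overlap there. Of the 68 genes 59 had a window, and 20 of these (33.9%) held the core, against 13.1% of all 27457 genes with a window and 15.2% of the 11700 with a probe set of their own on the array. Among measured genes with a window the core was found in 15 of 42 members (35.7%) and in 15.4% of all 7994. A match is a run of letters and does not show that a factor binds. The stretches below are shown because Gstm7 and Gstp1 stand near the ends of the range of differences, Gclm and Txnrd1 are textbook NRF2 targets, and Sod2 lies among the lower genes. Each stretch runs 5′ to 3′ on the gene's strand with the core in capitals, and none reaches past the gene's start. In Gstm7 (chr2:198260320-198260363, minus strand) the core lies 14 bases before the start, in Gstp1 (chr1:210769728-210769796, minus strand) 61 and in Gclm (chr2:213031933-213032001, plus strand) 172. In Txnrd1 (chr7:22755944-22756012, minus strand) it lies 78 bases before the start and in Sod2 (chr1:50050169-50050233, minus strand) 35. In Gclm, Txnrd1 and Sod2 the core is on the opposite strand, so its reverse complement is in capitals.
Gstm7: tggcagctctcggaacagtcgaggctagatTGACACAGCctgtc
Gstp1: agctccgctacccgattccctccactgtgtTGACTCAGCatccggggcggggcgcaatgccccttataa
Gclm: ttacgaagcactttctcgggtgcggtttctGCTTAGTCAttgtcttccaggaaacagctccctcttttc
Txnrd1: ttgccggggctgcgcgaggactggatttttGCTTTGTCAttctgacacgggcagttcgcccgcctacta
Sod2: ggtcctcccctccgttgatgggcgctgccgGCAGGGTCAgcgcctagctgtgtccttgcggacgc

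Both directions occurred with and without the core. Of the 15 measured genes with a core 5 were higher on the OGD array, 9 lower and 1 equal, with a median log2 difference of -0.04, and of the 27 measured genes with a window but no core 12 were higher and 15 lower, also with a median of -0.04. Gstp1, whose core reads TGACTCAGC, was lower on the OGD array, and Gstm7 was higher.

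Across both arrays the antioxidant and glutathione genes kept nearly the same intensities, as did most genes on the arrays. A probe set was called measured when its intensity was above the median of its array on at least 1 array, 19.6 at rest and 19.7 after OGD, and this median served as a floor under lower values. By this rule 54 of the 79 probe sets and 49 of the 68 genes were measured, each gene being represented by its probe set with the highest mean. No member probe set reached the 1.5-fold difference used in the study's design, a count of 0 in either direction, where 0.0899% of all 12231 measured probe sets were higher and 0.0736% lower by that much. At 1.2-fold, a smaller step used only for description, 4 of 54 probe sets were higher on the OGD array (7.41%, against 3.89% of all measured probe sets) and 0 were lower (against 4.21%). The 4 belonged to Mgst1, Gstm7, Gstm3 and Gclc. Differences of less than 1.2-fold were found in 92.6% of the member probe sets and in 91.9% of all measured ones. Of the 54 probe sets 25 were higher by any amount and 28 lower, where 43.7% of all measured probe sets were higher and 50.3% lower. Over the 49 measured genes the median log2 difference, OGD minus resting, was -0.04, with 20 genes higher, 28 lower and 1 equal, and over all 9580 measured genes it was -0.01, with 42.8% higher and 51.3% lower.

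**Figure D1:**
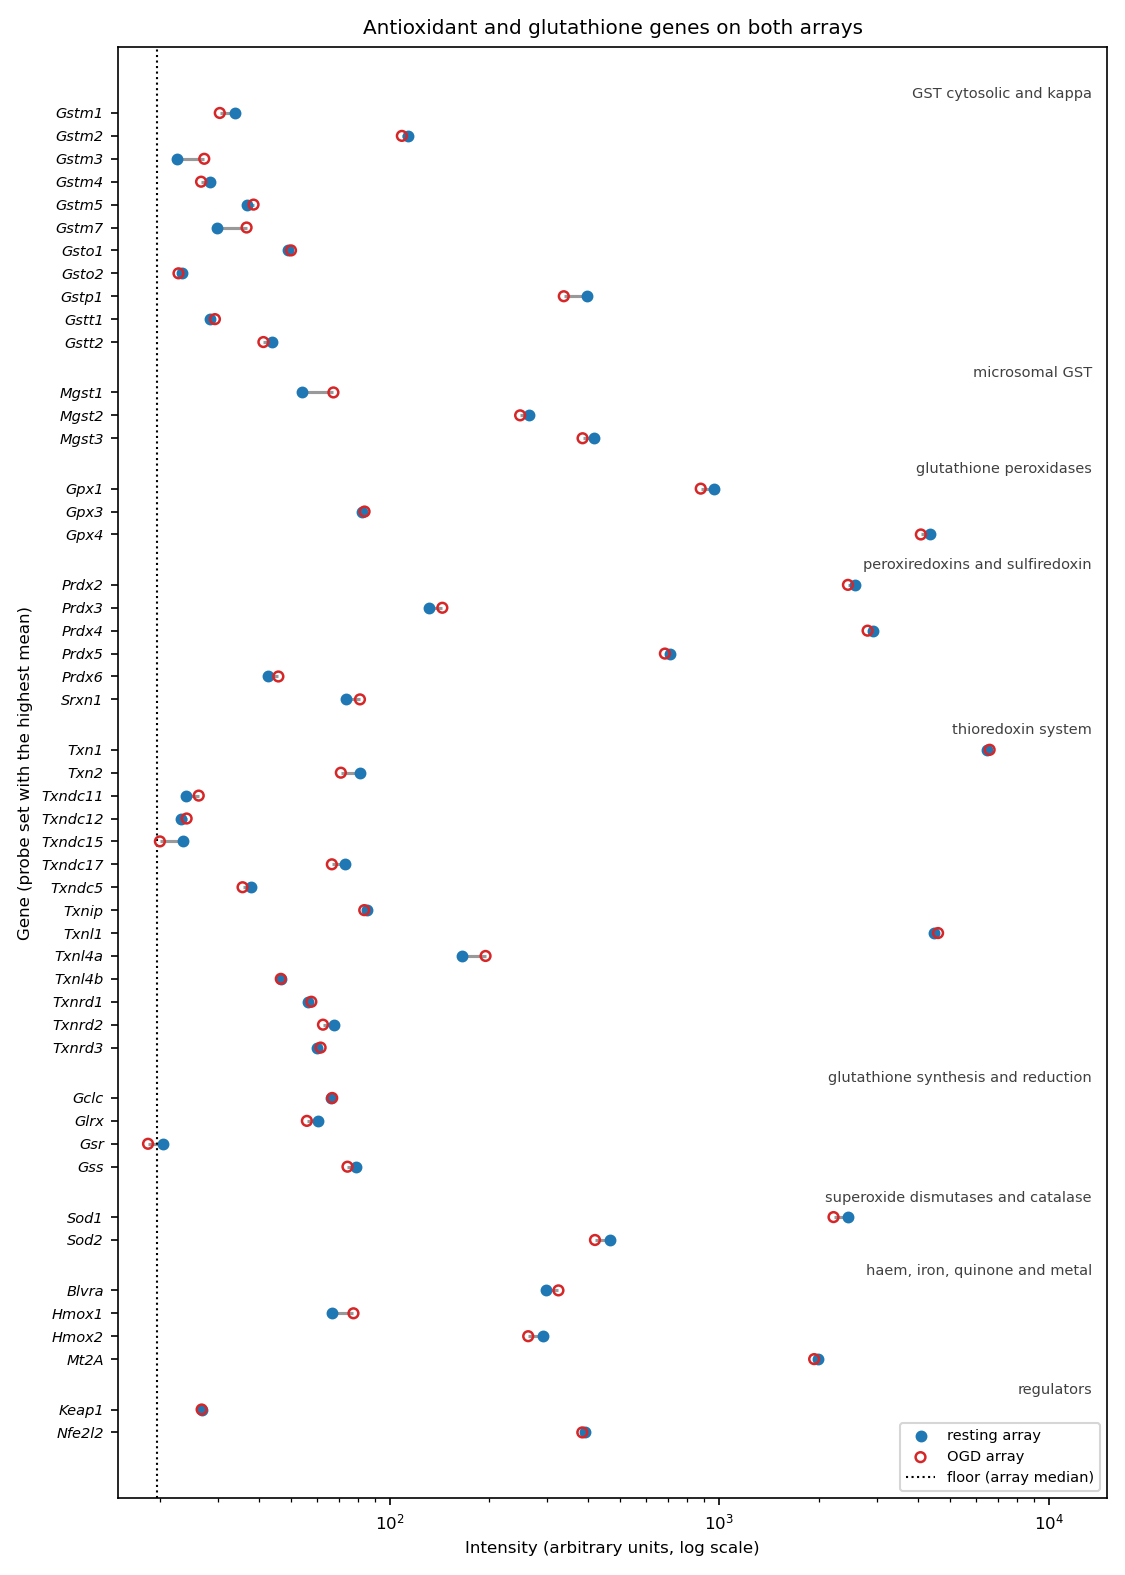
Intensity of each of the 49 measured genes on the resting array (filled blue) and the OGD array (open red), on a log axis in arbitrary units, grouped by role, with the floor of 19.6 as a dotted line. The 2 points of a gene lie close together, and the widest gaps are at Mgst1, Gstm7, Gstm3, Txnl4a and Gstp1; intensities of different genes come from different probes and cannot be ranked against each other.

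Among the glutathione S-transferases, which conjugate glutathione to reactive compounds, the mu-class genes went in both directions. Gstm7 had an intensity of 29.9 at rest and 36.7 after OGD, 1.23-fold higher, and Gstm3 had 22.6 and 27.3, 1.21-fold higher. Gstm5 was also higher, at 36.8 and 38.6. Gstm1 was lower, with 33.9 at rest and 30.5 after OGD (1.11-fold), as were Gstm2, with 113.8 and 108.7, and Gstm4, with 28.4 and 26.7. So 3 of the 6 measured mu-class genes were higher and 3 lower. These genes are close paralogs whose transcripts could share probe matches, and how far each probe set is specific to its gene is not given in the sources used here.

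Gstp1, the pi-class enzyme, had the lowest difference of all members, with an intensity of 397.0 at rest and 337.1 after OGD, 1.18-fold lower. Its probe set belongs to those with a mean intensity of at least 200, and of the 1702 such probe sets 2.94% were as far or farther on the lower side. Gstp1 was picked as the lowest of 17 member probe sets in that class, so the share gives its place and not a probability. The omega-class gene Gsto1 had 49.2 and 50.1 and Gsto2 had 23.5 and 22.8, which differ by less than 1.03-fold. The theta-class gene Gstt1 had 28.4 and 29.5. Gstt2 had 44.0 and 41.3 in its brighter probe set, while its other one was under the floor at rest (17.4) and just above it after OGD (19.7), so its direction was not the same in both. Over the 11 measured genes of these classes 5 were higher and 6 lower, with a median of -0.04. The other 9, Gsta1, Gsta3, Gsta3l1, Gsta4, Gstk1, Gstm6l, Gstp3, Gstt3 and Gstz1, did not reach the floor on either array and have no difference here.

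The largest difference of any member was in Mgst1, a membrane-bound GST of the endoplasmic reticulum and mitochondrial outer membrane. Its intensity was 54.2 at rest and 67.4 after OGD, 1.24-fold higher, and 2.32% of the 10529 measured probe sets with a mean intensity under 200 were as high or higher. Mgst1 was picked as the highest of 37 member probe sets in that class, so the share gives its place and not a probability. Its relatives differed in the other direction. Mgst2, which can make leukotriene C4, had 264 and 248 (1.06-fold lower), and Mgst3 had 415 and 384 (1.08-fold lower).

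Glutathione peroxidases reduce peroxides with glutathione. Gpx1, the main cytosolic form, had an intensity of 962 at rest and 878 after OGD, 1.10-fold lower. Gpx4, which reduces lipid peroxides in membranes and thereby holds off ferroptosis, gave opposite answers in its 2 probe sets. The brighter one had 4369 and 4085, lower by 0.10 on the log2 scale, and the dimmer one 87.6 and 105.0, a difference of 0.26, so that the gap between them was 0.36. With their mean in place of the brighter one, the value for Gpx4 was 0.08, on the higher side. Gpx3, the secreted form, had 82.1 and 83.8. Gpx2, Gpx6, Gpx7 and Gpx8 did not reach the floor.

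Peroxiredoxins remove hydrogen peroxide with the help of thioredoxin, and sulfiredoxin (Srxn1) repairs them when they are overoxidised. The cytosolic Prdx2 and the secretory-pathway Prdx4 were slightly lower, with intensities of 2578 and 2455 for Prdx2 and of 2931 and 2816 for Prdx4. Prdx5 had 707 at rest and 683 after OGD. Prdx3, the mitochondrial form, was higher, with 131 and 144 (1.10-fold), and so was Prdx6, with 42.7 and 45.9 (1.07-fold). Srxn1 had 73.7 at rest and 81.1 after OGD, 1.10-fold higher. Its other 2 probe sets were under the floor, at 8.62 and 12.4 and at 11.4 and 12.9, and give no measured difference, though both read higher after OGD. Prdx1 had no probe set of its own. The one it shares with Prdx1l1 had 8173 and 8195.

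**Figure D2:**
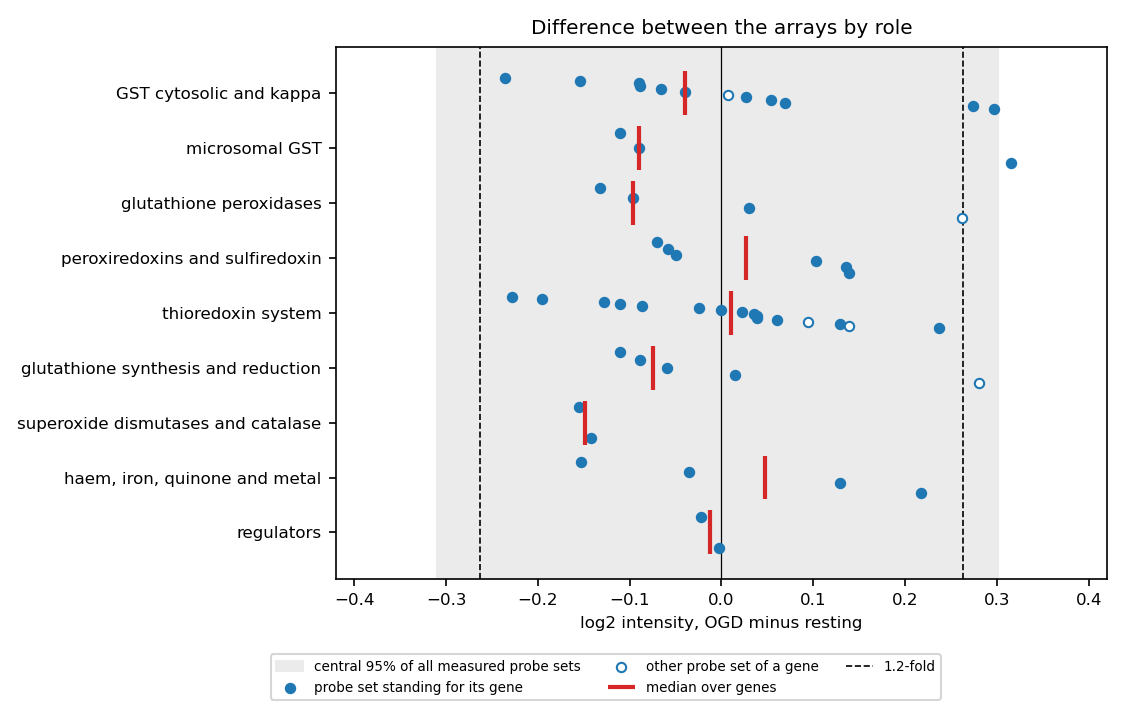
Difference in log2 intensity, OGD minus resting, of the 54 measured probe sets by role, with filled points for the probe set standing for its gene, open points for other probe sets of a gene, and a red bar at the median over genes. The grey band, from -0.31 to 0.30, holds the central 95% of all measured probe sets, and only Mgst1 lies outside it; dashed lines mark 1.2-fold.

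Thioredoxin and the reductases that recharge it had small differences. Txn1, cytosolic thioredoxin, had intensities of 6507 at rest and 6606 after OGD, and its mitochondrial counterpart Txn2 had 81.3 and 71.0, 1.15-fold lower. Txnrd1, the cytosolic reductase and an NRF2 target, had 56.4 and 57.8 in one probe set and 20.4 and 21.8 in the other, with log2 differences of 0.03 and 0.09. Txnrd2, the mitochondrial reductase, had 67.7 and 62.7, 1.08-fold lower, and Txnrd3 had 60.0 and 61.6. Txnip, which binds and inhibits thioredoxin and is known for its response to glucose, had 85.0 and 83.6, a difference of -0.02.

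The remaining thioredoxin-related genes encode proteins with a thioredoxin-like fold. Txnl4a, a component of the spliceosome and not an antioxidant enzyme, had 165.6 at rest and 195 after OGD, 1.18-fold higher. Txnl1 was 1.10-fold higher in a probe set at 229 and 253 and 1.03-fold higher in another at 4487 and 4608. Txndc11 had 24.0 and 26.3 and Txndc12 had 23.2 and 24.2, both higher. Txndc15 had 23.5 at rest and 20.1 after OGD, 1.17-fold lower but close to the floor. Txndc17 had 72.9 and 66.7 and Txndc5, a protein disulphide isomerase, had 37.9 and 35.7, both lower. Txnl4b had exactly the same value on both arrays, 46.7. Txndc9 and Txndc16 were under the floor. Over the 14 measured genes grouped as the thioredoxin system, Txnl4a among them, 7 were higher, 6 lower and 1 equal, with a median of 0.01.

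Glutathione itself is made by glutamate-cysteine ligase and glutathione synthetase. Gclc, the catalytic subunit of the ligase, had intensities of 66.2 at rest and 66.8 after OGD in its brighter probe set and of 24.9 and 30.3 in the other. The second of these was 1.21-fold higher and the first 1.01-fold, a gap of 0.27 on the log2 scale within 1 gene. Gclm, the modifier subunit, was under the floor, with 8.45 on both arrays. Gss, the synthetase, had 79.1 and 74.4, 1.06-fold lower. Gsr, which returns oxidised glutathione to its reduced form, had 20.5 at rest and was under the floor after OGD, at 18.5, so it was lower by at least 1.04-fold. Glrx, glutaredoxin, had 60.4 and 56.0, 1.08-fold lower.

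Both measured superoxide dismutases were lower on the OGD array. Sod1, the cytosolic enzyme, had an intensity of 2450 at rest and 2219 after OGD (1.10-fold), and Sod2, the mitochondrial enzyme, had 466.7 and 419 (1.11-fold). Of the 1702 probe sets with a mean intensity of at least 200, 14.8% were as low as Sod1 or lower, and 12.2% as low as Sod2 or lower. Catalase (Cat) was under the floor, at 16.1 and 14.1.

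Hmox1, the inducible enzyme that breaks down haem, had 66.7 at rest and 77.5 after OGD, 1.16-fold higher, and Hmox2, its constitutive relative, had 292 and 263, 1.11-fold lower. Blvra, biliverdin reductase A, which acts on the product of haem breakdown, had 297 and 325, 1.09-fold higher. Blvrb, the other biliverdin reductase, and Nqo1, a quinone reductase and a classical NRF2 target, were under the floor, Nqo1 at 10.9 and 11.9. Mt2A, the metal-binding metallothionein, had 1987 and 1939, a log2 difference of -0.04. For Fth1, the ferritin heavy chain that stores iron, the only probe set was shared with a pseudogene and had 13204 and 13121.

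The genes of the regulators themselves differed little. Nfe2l2 had intensities of 390 at rest and 384 after OGD, a log2 difference of -0.02 that turned slightly positive with quantile normalization or loess scaling. Keap1 had 26.9 and 26.8, and its second probe set was under the floor at 17.9 and 13.5. NRF2 is controlled mainly through protein stability, which arrays do not measure.

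Differences followed brightness in part. Of the 17 member probe sets with a mean intensity of at least 200, 13 were lower on the OGD array, with a median of -0.07, and of all 1702 such probe sets 62.6% were lower, with a median of -0.04. Of the 37 dimmer member probe sets 21 were higher, with a median of 0.03, where 45.1% of all 10529 were higher, 48.3% were lower and the median was 0. Among the bright members higher on the OGD array were Txn1, Blvra and both measured probe sets of Txnl1, the only 4 of the 17. After quantile normalization, and likewise after removal of a loess trend on brightness, 27 of the 54 member probe sets were higher and 27 lower, against 25 and 28 in the values as deposited. Of all measured probe sets 49.0% were then higher and 50.6% lower with quantile scaling, and 49.4% and 50.6% with loess. Only 1 member probe set, that of Nfe2l2, changed sign, so the bright members were mostly still lower.

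**Figure D3:**
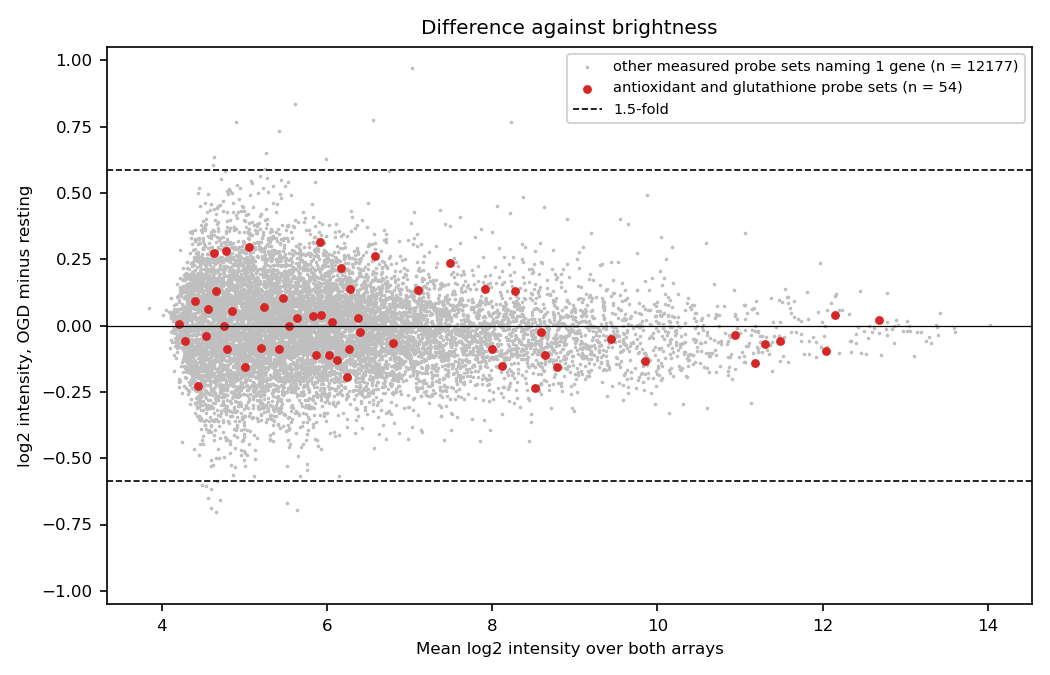
Difference in log2 intensity (OGD minus resting) against the mean log2 intensity over both arrays, with antioxidant and glutathione probe sets in red (n = 54) and all other measured probe sets in grey (n = 12177). The red points lie among the grey ones, all inside the dashed lines at 1.5-fold, and most of those at the bright end lie below 0.

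Probe sets of 1 gene served as the only internal measure of error. Across 1902 genes with more than 1 probe set above the floor on both arrays the SD between probe sets of a gene was 0.147 on the log2 scale, or 1.11-fold. Of the members 4 had such pairs. The gap was 0.06 for Txnrd1 and 0.10 for Txnl1, both of whose probe sets were higher on the OGD array, 0.27 for Gclc and 0.36 for Gpx4. This SD covers noise that differs between probe sets and not what they share. The SD of all 11594 differences above the floor on both arrays was 0.152. Probe sets of 1 gene thus differed from each other about as much as all probe sets varied. Mgst1, Gstm7 and Gstm3 each had 1 probe set, so their differences were not checked within the gene.

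Of 89 further genes of the same pathway, listed by known function, 84 had a probe set of their own and 65 were measured. Their median difference was 0, with 31 higher, 30 lower and 4 equal. At 1.2-fold 3 were higher (against 3.56% of all measured genes) and 0 lower (against 3.97%), and none reached 1.5-fold, past which 0.0731% of all measured genes were higher and 0.0418% lower. Those 3 were Sqstm1, an autophagy receptor that binds KEAP1, at 71.4 and 92.2 (1.29-fold), Tfrc, the transferrin receptor that imports iron, at 120.9 and 154 (1.27-fold), and Msra, which repairs oxidised methionine, at 26.5 and 32.4 (1.22-fold). The other 3 probe sets of Sqstm1 were 1.22, 1.10 and 1.13-fold higher, the other one of Tfrc was 1.13-fold higher, and Msra had 1 only. Nfe2l1 was counted by its brighter probe set, at 156.9 and 161.9 (1.03-fold higher). Its dimmer probe set had 46.0 and 60.2, 1.31-fold higher. Slc7a11, the cystine transporter that feeds glutathione synthesis and an NRF2 target, had 55.5 and 61.8, a log2 difference of 0.15, and Chac1, which degrades glutathione, had 57.3 and 68.1, a difference of 0.25. Osgin1, another NRF2 target, had 40.3 and 45.2, a difference of 0.17. Slc7a11, Chac1 and Osgin1 are examples and do not stand for the list, in which Me1 (-0.09), Cbr1 (-0.09) and Ugdh (-0.08) were lower.

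By function, the 12 measured genes of NRF2 regulation were 6 higher and 6 lower, with a median of -0.01 (0.004 with quantile and 0.005 with loess scaling). Bach1, a repressor that competes with NRF2 for its sites, had 27.2 at rest and 31.9 after OGD, 0.23 higher on the log2 scale. Cul3, the scaffold of the ligase that KEAP1 works with, had 2851 and 3138 in one probe set and 242 and 208 in the other, which point in opposite directions. The 8 measured genes that supply NADPH had a median of -0.04, with Taldo1 0.19 higher and the mitochondrial Idh2 lower (-0.16). The 12 of cystine uptake and glutathione turnover had -0.01, or 0.02 and 0.01 with quantile and loess scaling. The medians were 0.01 for the 17 other redoxins, selenoproteins and repair enzymes and 0.004 for the 16 of detoxification and iron. In the last list the aldo-keto reductases Akr1a1 and Akr1b1 had log2 differences of 0.11 and -0.14.

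The labelled cell type was checked against markers. Of 16 microglial and macrophage markers with a probe set 15 were measured, among them Aif1, Itgam, Cx3cr1, P2ry12, Tmem119, Trem2 and Cd68, and Fcer1g was under the floor. At rest Trem2 had 604 and Cd68 371, while Tmem119 had 23.3 and Cx3cr1 31.6, not far above the floor. Csf1r was above the floor at rest only. Of the 15 measured, 14 were lower on the OGD array (13 with quantile or loess scaling) and 1, C1qc, higher, where 51.3% of all measured genes were lower. The median of the 15 was -0.08, and the summed intensity over the 16 was 1727 at rest and 1666 after OGD. Of 8 astrocyte markers 4 were above the floor, and Gfap and Slc1a2 were higher on the OGD array, from 27.4 to 36.9 and from 23.8 to 32.0. Gja1 went from 22.1 to 24.3 and Aldoc from 120.9 to 118.6, and the sum over the 8 was 239 and 258. Aqp4, Slc1a3, Aldh1l1 and S100b were under the floor. The sums over oligodendrocyte, neuron, fibroblast and endothelial markers were 196 and 199.6, 231 and 233, 195 and 192, and 151 and 162, with 10 of 28 markers above the floor. The part of these shifts in the differences of the antioxidant genes was not tested, and in a bulk sample fewer cells of a type and less RNA per cell cannot be told apart.

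The deposited differences were not continuous. Of 28341 probe sets with unequal values, 71.0% had a log2 difference whose size was found again, to within 1e-08, in at least 1 other probe set, and 44.2% shared theirs with 9 or more others. The most common size was found in 245 probe sets. Among the members 42 of 73 such probe sets had a recurring size. That of Mgst1, 0.32, was found in 26 probe sets, that of Gstm3, 0.27, in 68 and that of Txnl4a, 0.24, in 114. The differences of Gstm7, Gstp1, Hmox1, Sod1 and Sod2 were found in no other probe set. Values equal on both arrays made up 8.69% of all 31099 probe sets and 6 of the 79 members, Txnl4b being the 1 measured among these. How the authors' summary gave such steps is not given in the sources used here.

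**Figure D4:**
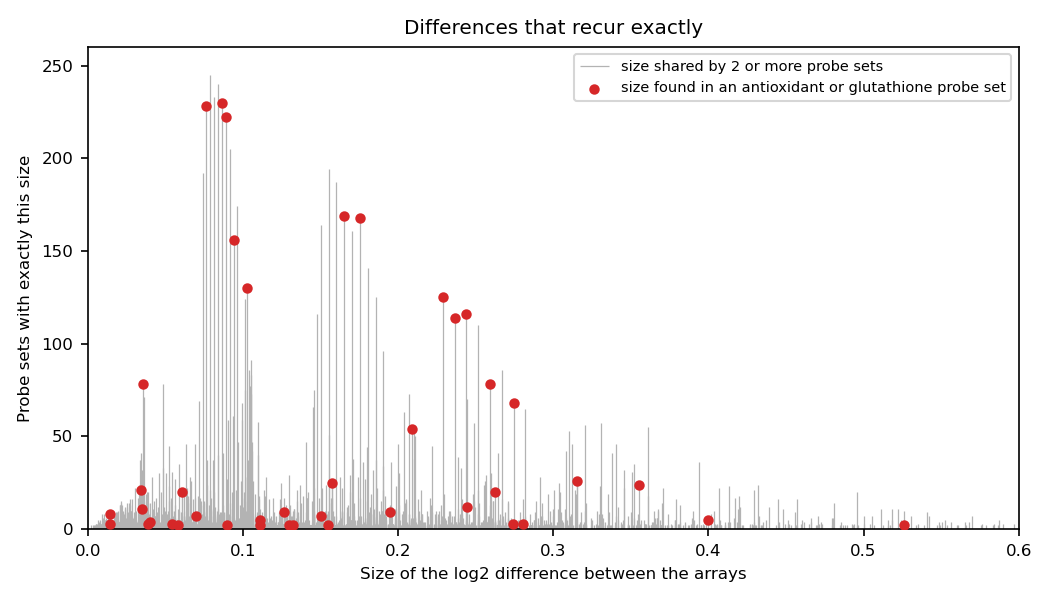
Number of probe sets (vertical axis) that have exactly the same size of log2 difference between the arrays (horizontal axis), for sizes found at least 2 times and up to 0.6, with red points at the sizes found in antioxidant and glutathione probe sets. The counts form a comb with clusters of tall lines, the tallest at 245 probe sets, and many red points sit on tall lines.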

How the data were processed

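Expression was measured on Affymetrix rat arrays with 1 resting and 1 OGD sample of microglial cells. Per the labels' protocols, cDNA primed with oligo(dT) was transcribed in vitro with biotinylated nucleotides. The authors' deposited values are intensities on a linear scale, 1 per probe set, from 2.73 to 19778. Which background correction, summary and normalization they used is not given in the sources used here, and the number of arrays limits the precision. Of 31099 probe sets 57 were controls, 20826 named 1 gene, 436 several and 9780 none. The platform annotation gave the names, and updating them through Entrez IDs changed 0 member symbols. Values under each array's median of non-control probe sets were set to it before differences were taken, log2 OGD minus log2 resting. A gene was represented by its probe set with the highest mean. Named in full were the 8 genes farthest from 0 in each direction, the one with the highest intensity in each role, genes above the floor on 1 array only, and 8 NRF2-related genes; the others are given more briefly. Promoters were to be shown for up to 5 genes with a core. The members were set by gene name and the lists by known function. All of these, and the 1.2-fold step, were set with earlier results of these data known. Alternatives covered the floor, scaling between arrays (centring, quantile, loess with a span of 0.3) and the choice of probe sets. The calculation was tested on simulated arrays with 2-fold differences planted in brighter probe sets and little added noise. No member differed by that much, so the test does not bear on differences of the size reported here. Python 3.11.15, pandas 2.3.3, numpy 2.4.6 and statsmodels 0.14.6 were used.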

Additional observations from a re-analysis of the deposited data

How the results depend on the processing

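The count of 0 member probe sets past 1.5-fold, in either direction, was the same under every alternative run. Few probe sets of any kind went that far: without a floor 0.274% of all were higher and 0.216% lower. The count past 1.2-fold depended on the floor: with a floor at the 30th percentile, and likewise without a floor, 8 were higher and 1 (Keap1, in its dimmer probe set) was lower, and with a floor at the 70th percentile 1, Mgst1, was higher. Of all probe sets measured under these settings 5.27% were higher and 5.21% lower with the 30th percentile, 6.29% and 6.17% without a floor, and 2.50% higher with the 70th. Centring on the median gave 5 higher, and quantile or loess scaling 6. The share of all probe sets past 1.2-fold was not taken under these scalings, so these counts cannot be set against it. An alternative chosen after seeing the data, keeping only probe sets whose difference recurs nowhere else, left 1, Gstm7. The share of all probe sets was not taken for it either. Of the related genes past 1.2-fold, without a floor 6 were higher and 3 lower and 1, Nnt, was past 1.5-fold on the higher side, where of all 14217 genes 5.60% were higher and 5.56% lower at 1.2-fold and 0.246% higher at 1.5-fold. With the lower floor 2 were lower (4.87% of all genes), and with each gene's probe sets averaged 1 was higher. The share of all genes was not taken with averaging, so that count cannot be set against it. The cause of these changes was not tested. With centring, quantile or loess scaling only 1 of the 54 measured member probe sets, that of Nfe2l2, changed sign. Of 27 named member genes 2, Gpx4 and Nfe2l2, changed sign under some alternative, as did the medians of 2 of the 9 roles, the glutathione peroxidases and the regulators. No paired analysis was possible because each group has 1 array, and for the same reason no replicate could be left out. Dim probe sets limit what can be seen: 19 of the 68 genes were under the floor on both arrays, among them Nqo1, Gclm and Cat. This limit is not particular to the members, since 49 of the 68 were measured and 9580 of all 14217 genes.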

Other observations

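Some deposited values lie on a grid. Of all probe sets 2.69% had, on both arrays, a value whose decimal part was 0.665 or 0.165, so that their differences were multiples of 0.5 intensity units. Of the members 3 were among these: Sod2, with a difference (OGD minus resting) of exactly -47.5 units, Txnrd2, with exactly -5, and Txnl4b, with 0. The shared probe set of Prdx1 differed by exactly 22 units. Without a floor the largest difference of any member probe set was that of a dim one of Srxn1, 0.53 on the log2 scale, at intensities of 8.62 and 12.4.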
